A study of Mus musculus with 4 samples.

Results

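The genes described here are the 10 of MHC class I and its peptide loading machinery, H2-K1, H2-D1, B2m, Tap1, Tap2, Tapbp, H2-Q4, H2-T22, H2-T23 and Nlrc5, chosen by name from 55487 genes in a single-cell RNA-seq data set of mouse brain cells. There were 4 droplet libraries, so that every pairing of an age, young or old, with a genotype label had 1. The control genotype, WT Cre, carries the endothelial driver Cdh5-Cre alone, and the EC-K4KO genotype carries the same driver with floxed Klf4. Per the study's methods, the line has a C57BL/6J background, mice of both sexes were used, and controls and EC-K4KO mice alike received tamoxifen to activate the Cre, whose promoter is active in endothelium throughout the body. The labels name sorting or purification by endothelial markers for the series, and the step used for these suspensions is not given in the sources used here. Ages are labelled young and old, and the study gives a range of months for each in its cohorts, with the Cre induced before either range began. How many mice each library held is not given in the sources used here. The comparisons ask how class I genes differ with age, with the genotype label, between cell classes and along the vessel tree.

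MHC class I molecules carry short peptides from inside the cell to its surface, where CD8 T cells and natural killer cells read them. A heavy chain pairs with the light chain beta-2 microglobulin in the endoplasmic reticulum, the TAP transporter brings peptides in from the cytosol, and tapasin holds the empty complex beside the transporter until a peptide fits. Interferon and NF-kB signalling raise many of these genes, and Nlrc5 is the transactivator that acts on their promoters. Most cells of the body make class I, while the resting brain parenchyma is known for low levels and its blood vessels for higher ones.

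Most of the genes lie in 1 place. Per the GENCODE vM21 annotation of GRCm38, 8 of the 10 genes sit within 2.127 Mb of chromosome 17, the mouse MHC, from 33915899 to 36042747. H2-K1 lies at chr17:33996017-34000347 and Tapbp at chr17:33915899-33929292, while Tap1 (chr17:34187553-34197225) and Tap2 (chr17:34203527-34216321) lie close together. H2-D1 (chr17:35262730-35267499) and H2-Q4 (chr17:35379617-35385290) lie further along, followed by H2-T23 (chr17:36029773-36032855) and H2-T22 (chr17:36037128-36042747). B2m is at chr2:122147686-122153083 and Nlrc5 at chr8:94434356-94527272. All 10 are annotated as protein coding. H2-K1, H2-D1 and H2-Q4 share long stretches of sequence with each other and with H2-Q6 and H2-Q7, and H2-T22 with H2-T10, so their counts carry an uncertainty from reads that could fit more than 1 of them.

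Promoters are shown for 4 members to show which motifs members of different role share. H2-K1, a classical heavy chain, and H2-Q4, a non-classical one, hold all 4 motifs searched, B2m holds 3 and Tap1 holds 1. Each is the 200 bases before the RefSeq transcript start on GRCm38.p6, with the strand's own sequence from 5′ to 3′ and every motif match in capitals: H2-K1 on the minus strand at chr17:34000348-34000547, H2-Q4 on the plus strand at chr17:35379417-35379616, B2m on the plus strand at chr2:122147487-122147686 and Tap1 on the plus strand at chr17:34187356-34187555.
H2-K1: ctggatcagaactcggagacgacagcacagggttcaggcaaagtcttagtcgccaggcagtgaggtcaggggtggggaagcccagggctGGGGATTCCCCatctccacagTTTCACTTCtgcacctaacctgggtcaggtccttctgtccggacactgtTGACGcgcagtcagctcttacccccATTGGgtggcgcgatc
H2-Q4: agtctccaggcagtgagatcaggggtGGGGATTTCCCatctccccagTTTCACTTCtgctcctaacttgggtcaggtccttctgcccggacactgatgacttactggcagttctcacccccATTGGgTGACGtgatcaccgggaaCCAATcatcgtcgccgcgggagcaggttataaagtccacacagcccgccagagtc
B2m: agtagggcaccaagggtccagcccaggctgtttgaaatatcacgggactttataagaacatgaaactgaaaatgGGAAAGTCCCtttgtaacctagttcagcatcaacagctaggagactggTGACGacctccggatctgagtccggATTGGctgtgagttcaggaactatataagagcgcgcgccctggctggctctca
Tap1: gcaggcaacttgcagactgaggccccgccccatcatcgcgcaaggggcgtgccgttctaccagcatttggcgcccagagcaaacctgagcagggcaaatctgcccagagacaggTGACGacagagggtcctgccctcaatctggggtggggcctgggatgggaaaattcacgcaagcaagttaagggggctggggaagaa
The motifs, searched on both strands, were the interferon response core GAANNGAAA, the CRE core TGACG, the CCAAT box CCAAT and the NF-kB motif, whose matches overlap each other in H2-K1 and H2-Q4. Of 32851 promoter windows of this length, 4.995% held the interferon response core, 15.659% the CRE core, 29.348% the CCAAT box and 4.097% the NF-kB motif. The table had entries for 8 of the 10 members, with 9 windows because H2-K1 had a pair of starts. Among these 9 windows the interferon response core was in 4, the CRE core in 7, the CCAAT box in 8 and the NF-kB motif in 5. The H2-K1 windows, at chr17:34000348-34000547 and chr17:34000334-34000533, overlap and each holds all 4 motifs. That promoter therefore counts more than once in each number. The window before H2-D1 held all 4 motifs, and that before H2-T23 held the CCAAT box alone. A match describes the letters of a window and is not a binding site.

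The libraries held 5324 to 8358 cell barcodes and 30655769 to 88812581 UMIs (unique molecular identifiers, each standing for 1 RNA molecule captured), and 20737 cells passed the filters. Clustering gave 33 clusters, of which 9 were endothelial-like and 6 stayed unnamed. The labels call the samples brain endothelial cells, and endothelial-like cells made up 38.9% to 60.6% of each library, 10102 cells in all. Values are given in 1 order throughout, young WT Cre, labelled young EC-K4KO, old WT Cre and labelled old EC-K4KO. Median depth in endothelial-like cells was 6375, 9931, 4719 and 3770 UMIs. No pair of libraries shared more than 42 barcodes, or 0.789% of the smaller one. Klf4, the targeted gene, went against the labels. In endothelial-like cells it stood at 1711, 3284, 2102 and 3296 CPM (the UMIs of a gene relative to all UMIs of the same cells), higher at each age under the EC-K4KO label. Which part of Klf4 is deleted is not given in the sources used here, and whether these UMIs come from outside it was not tested. The study assessed the knockout separately, by quantitative PCR for Klf4 and western blot for its protein, in bead-enriched endothelium from tamoxifen-treated mice. It presents that check as showing loss of KLF4 from brain endothelium, and does not name these libraries there. The libraries are named below by their labels. The log2 difference of Klf4 between labels was 0.83 (edgeR adjusted p = 0.0174), toward the libraries labelled EC-K4KO. Markers of other cells differed among the endothelial-like sums. The 5 neutrophil markers summed to 3.83, 3.54, 7.66 and 144 CPM, with 3, 3, 3 and 5 of them detected. The 5 erythroid markers summed to 379, 734, 515 and 874 CPM, while the 5 microglia markers stayed between 48.7 and 52.1 CPM. The 5 border macrophage markers summed to 9.68, 13.2, 23.98 and 31.8 CPM, with 4, 5, 3 and 3 of them detected. Pf4, also a platelet gene, is 1 of these 5. The part of these other cells in the results was not tested.

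With age, the class I genes of endothelial-like cells split. The classical heavy chains H2-K1 and H2-D1 rose, and the non-classical heavy chain H2-T23 and the transporter subunit Tap2 fell. Each group was 1 library, so age was tested as 2 old against 2 young libraries with the genotype label as a second term (edgeR's quasi-likelihood test, Benjamini-Hochberg adjustment over 14924 genes). This called 4 of the 10 members, 2 higher and 2 lower, where 17.6% of all genes tested were called, 10.7% higher and 6.88% lower. The median log2 change of the 10 members was 0.12, against −0.02 over all genes tested.

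H2-K1, which presents peptides to CD8 T cells, had 934, 1098, 1232 and 1495 CPM. Each old library stood above each young one, and its log2 change with age was 0.57 (SE 0.087, edgeR adjusted p = 0.0046). Within the WT Cre pair the log2 ratio of old to young was 0.40, with a 95% counting interval from 0.37 to 0.43, and within the pair labelled EC-K4KO it was 0.45 (0.42 to 0.47). These intervals cover counting error and not the spread between mice. H2-D1, the other classical heavy chain, had 1254, 1518, 1460 and 1748 CPM. The age groups overlapped, because old WT Cre lay under the library labelled young EC-K4KO, but within each label the old library was higher. Its log2 change with age in the additive fit was 0.36 (SE 0.090, adjusted p = 0.0318). Arterial cells, where H2-D1 stood at its highest along the vessel tree, were 7.60%, 7.31%, 17.4% and 15.9% of the endothelial-like cells. With the arterial, capillary and venous ratios weighted equally, the log2 ratio of H2-D1 moved from 0.22 to 0.12 in the WT Cre pair and from 0.20 to 0.11 in the pair labelled EC-K4KO, and that of H2-K1 from 0.40 to 0.28 and from 0.45 to 0.32. B2m, the light chain that every class I heavy chain needs, had 1098, 1250, 1175 and 1255 CPM with a log2 change of 0.20 (SE 0.090, adjusted p = 0.161), which did not pass.

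Scaling mattered to the size of these values. On the scale of total UMIs the median of 8432 genes at 10 CPM or more shifted by −0.18 between the WT Cre libraries and by −0.15 between those labelled EC-K4KO, and with TMM-scaled totals by −0.02 and −0.01. The edgeR changes above carry the TMM scaling and the paired CPM ratios do not. H2-K1 ratios with TMM-scaled totals were 0.56 and 0.58.

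The loading genes had lower CPM in old endothelium, and Tap2 alone of them was called in the fit above. Tap2, which forms the peptide transporter together with Tap1, had 113, 110, 82.5 and 79.9 CPM. Neither old library reached either young one, and the log2 change was −0.31 (SE 0.069, adjusted p = 0.0221). Under DESeq2 this call was lost, with an adjusted p of 0.2498. Tap1 had 40.9, 37.8, 29.5 and 31.6 CPM and a log2 change of −0.22 (SE 0.089, adjusted p = 0.128). Tapbp, which encodes tapasin, had 205, 196, 138 and 166 CPM and a log2 change of −0.26 (SE 0.089, adjusted p = 0.0816). With TMM-scaled totals the log2 ratios of old to young for Tap1 were −0.30 (WT Cre pair) and −0.13 (pair labelled EC-K4KO). Those for Tapbp were −0.41 and −0.11. For these genes too the old CPM lay under the young CPM, but neither change passed the threshold. With doublets kept both were called (adjusted p = 0.0401 and 0.0468), and 6 members passed in that setting, where 18.9% of 14942 genes were called. Without the subclusters led by Krt14, Mbp, Pf4, Vtn or C1qa, described with the vessel segments, 5 members passed, 2 higher and 3 lower, Tapbp among them (adjusted p = 0.0497), where 25% of 14732 genes were called. A subcluster of 445, 381, 200 and 109 cells led by the immunoglobulin gene Igkc was kept in this fit.

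Among the non-classical heavy chains, H2-T23, the mouse Qa-1 molecule that displays leader peptides of other class I chains to natural killer cell receptors, had 261, 223, 173 and 151 CPM. It fell with age by 0.43 on the log2 scale (SE 0.071, adjusted p = 0.0067), and all 9 fits that were run called it. Within the WT Cre pair the log2 ratio was −0.59 (−0.66 to −0.52) and within the pair labelled EC-K4KO −0.56 (−0.64 to −0.49). H2-Q4 had 81.3, 98.2, 81.4 and 90.2 CPM (log2 change 0.09, SE 0.074, adjusted p = 0.451) and H2-T22 had 78.4, 86.9, 82.2 and 83.6 CPM (log2 change 0.15, SE 0.074, adjusted p = 0.189). Old and young values of these 2 genes overlapped. The ratio of H2-Q4 in the pair labelled EC-K4KO was −0.12 on total UMIs and 0.01 with TMM-scaled totals, so its direction turned with the scaling. In the same pair H2-T22 (from −0.06 to 0.08) and Nlrc5 (from −0.09 to 0.04) turned too, as did Tap2 between the young libraries (from −0.03 to 0.01), with counting intervals that held 0. Nlrc5 was rare, with 4.4, 6.1, 5.6 and 5.7 CPM, and its log2 change of 0.28 (SE 0.20, adjusted p = 0.380) did not pass.

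**Figure D1:**
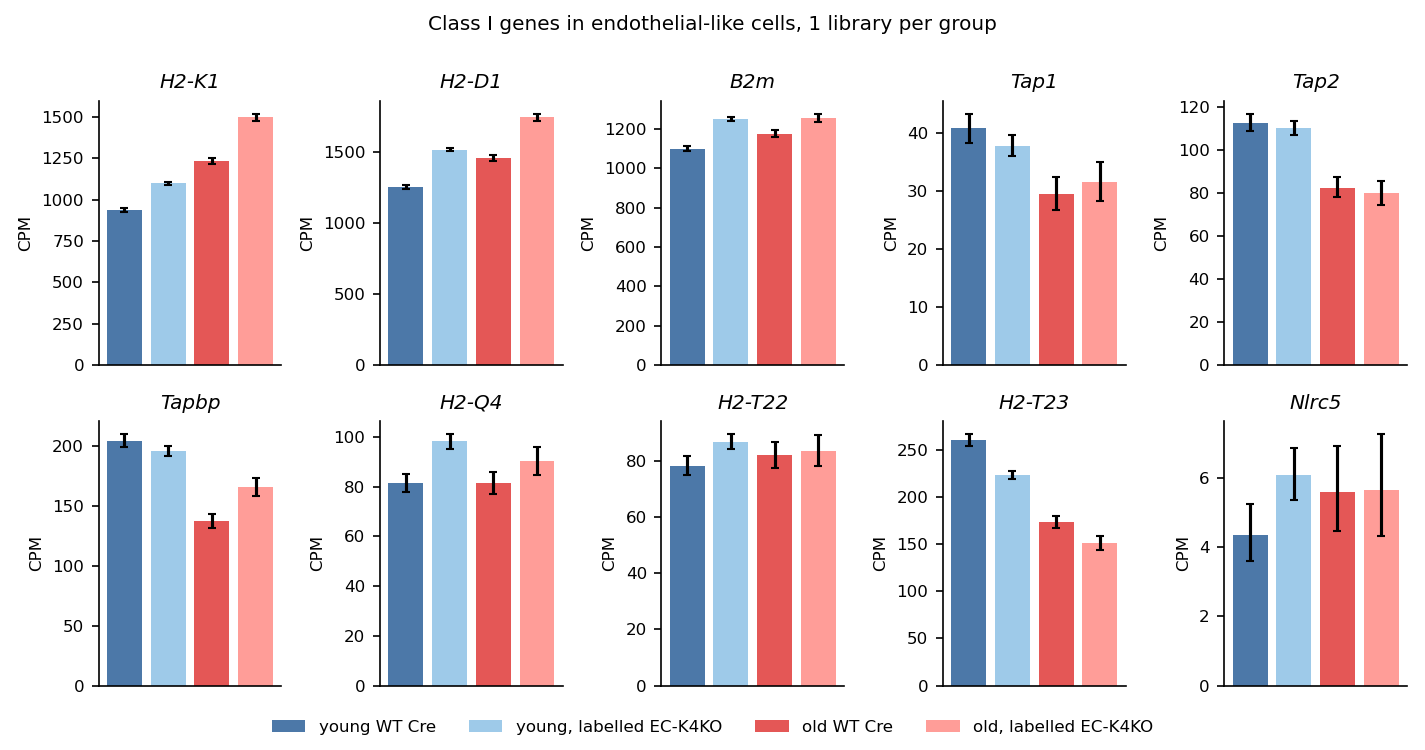
Each panel plots CPM (UMIs of the gene relative to all UMIs, linear axis from 0) of 1 gene in endothelial-like cells, 1 bar per library, with exact 95% Poisson intervals that cover counting error only. H2-K1 runs from 934 CPM in young WT Cre up to 1495 CPM in the old library labelled EC-K4KO, while H2-T23 runs from 261 CPM down to 151 CPM over the same libraries.

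Shares of heavy chain UMIs depended on which non-classical genes were counted. H2-Q4, H2-T22 and H2-T23 made up 16.1%, 13.5%, 11.1% and 9.11% of the UMIs of the 5 heavy chains in endothelial-like cells. With H2-Q7, which is no member, counted too, the non-classical share was 17.4%, 15.7%, 15.5% and 14.1%, so that the labelled young EC-K4KO and old WT Cre values lay close together. A share of UMIs describes counted tags and not protein.

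Shares of cells with a UMI depend on depth and were compared at 1 depth. After thinning every cell to 1000 UMIs, 52.3%, 57.3%, 64.3% and 66.1% of endothelial-like cells held at least 1 H2-K1 UMI, against 4.76%, 15.4%, 7.19% and 5.0% of oligodendrocyte-like cells, which had the lowest mean H2-K1 level of the classes with at least 30 cells in every library. Before thinning the endothelial shares for H2-K1 were 91.9%, 95.1%, 92.7% and 92.6%, at median depths from 3770 to 9931 UMIs (oligodendrocyte-like medians 5018 to 9395). H2-T23 was seen in 21.9%, 20.7%, 17.3% and 13.1% of thinned endothelial-like cells, and in 1.19% of young WT Cre and 1.25% of old WT Cre oligodendrocyte-like cells. In the libraries labelled young and old EC-K4KO 0 of 39 and 0 of 140 thinned oligodendrocyte-like cells held one. The exact 95% intervals of these shares reached 9.0% and 2.6%, and without thinning 5.13% and 0.714% of the same cells held one. Without thinning the endothelial shares for H2-T23 were 74.4%, 78.5%, 55.5% and 47.0%.

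With the genotype label, none of the 10 members was called in endothelial-like cells by edgeR, where 1.46% of 14924 genes were. At an unadjusted p under 0.05 there were 4 members, where 1700 of the 14924 genes were, and DESeq2 called 0 members as well. H2-K1 had a log2 change of 0.29 (SE 0.087, adjusted p = 0.234), H2-D1 of 0.30 (SE 0.090, adjusted p = 0.231) and H2-Q4 of 0.25 (SE 0.074, adjusted p = 0.228) toward the libraries labelled EC-K4KO, and H2-T23 of −0.18 (SE 0.071, adjusted p = 0.382). The ratios within each age pointed the same way without a test. H2-K1 stood 0.23 higher in log2 (0.21 to 0.25) with the EC-K4KO label in the young pair and 0.28 higher (0.25 to 0.31) in the old pair. For H2-D1 the ratios were 0.28 (0.26 to 0.29) and 0.26 (0.23 to 0.29), and for H2-T23 −0.22 (−0.27 to −0.18) and −0.20 (−0.29 to −0.11). Over all 40 ratios of the 10 members in 4 pairs of libraries, 28 counting intervals left out 0, and 23 ratios lay above 0. The pairs share libraries, so these counts are not independent.

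The wider pathway was read from 6 lists with 44 genes, of which 42 could be tested for age in endothelial-like cells and 9 were called, 5 higher and 4 lower, against the 17.6% of all genes called in this fit, 10.7% higher and 6.88% lower. The DESeq2 fit did not call H2-T10, Tapbpl, Jak1 or H2-Eb1 of these 9. No gene of the immunoproteasome list (0 of 5), which makes class I peptides, was called by edgeR, and DESeq2 called 0. At an unadjusted p under 0.05 there were 2, where 5067 of 14924 genes were. Of the other class I and class I-like genes 3 of 9 tested were called. H2-Q7, the Qa-2 heavy chain, had 41.8, 78.5, 157 and 207 CPM and the largest log2 change of these 9 (1.79, SE 0.12, adjusted p = 0.00014). It was also called with the genotype label (adjusted p = 0.0396), and its old libraries stood above its young ones. H2-T10 rose by 0.75 and Fcgrt, the neonatal Fc receptor heavy chain, fell by 0.36 on the log2 scale. Among 9 transcription factors Irf1, an interferon-responsive activator of class I, rose (125, 143, 241 and 241 CPM, log2 change 1.00, adjusted p = 0.00028). Of 6 assembly chaperones the general chaperone Hspa5 rose by 0.94 and the tapasin-related Tapbpl fell by 0.51 on the log2 scale, a call that DESeq2 did not make (adjusted p = 0.0839). In the interferon receptor and signalling list 1 of 9 genes passed, Jak1 with 0.33, which 6 of 9 fits called (adjusted p from 0.0085 to 0.169), and DESeq2 called 0 of the 9. Of 4 class II genes tested H2-Eb1 was called at −0.96, with 6.0, 3.7, 3.0 and 1.5 CPM, while 3 of the 4 lay above 0, the list's median was 0.92 and DESeq2 called 0.

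Along the vessel tree most members were lower in capillary than in arterial or venous cells. Subclusters of endothelial-like cells were sorted into segments by arterial, capillary and venous markers, which gave 207 to 376 arterial, 1165 to 1647 capillary and 259 to 409 venous cells per library. Subclusters with no clear segment held 8.90% to 30.9% of the endothelial-like cells of a library. The members and related genes were left out of the clustering. Among the capillary subclusters 3 led with genes of other cells. The one led by the keratin genes Krt14 and Krt15 held 167, 242, 246 and 378 cells, the one led by the myelin gene Mbp 88, 34, 37 and 27, and the one led by the platelet gene Pf4 18, 27, 42 and 40. Together they were 16.6%, 18.4%, 25.8% and 38.2% of the capillary cells. Segments were compared inside each library (edgeR with the library as block, 12689 genes). In venous cells 7 of the 10 members were higher than in capillary cells, where 11.6% of all genes were higher, and in arterial cells 9 were, where 20.9% of all genes were higher. The median log2 difference of the members was 0.36 for venous and 0.52 for arterial cells, against 0.00095 and −0.02 over all genes. Without these 3 subclusters and those led by Vtn and C1qa, a choice made after the data were seen, the counts were again 7 and 9 members, where 11.3% and 19.0% of 12176 genes were higher.

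H2-K1 had 747, 906, 1001 and 1074 CPM in capillary cells and 1184, 1395, 1451 and 1814 CPM in venous cells. Its venous value was above the capillary value in every library, by 0.65 on the log2 scale (SE 0.054, adjusted p = 1.9e-06). H2-D1 ran from 1011 to 1361 CPM in capillary, from 1359 to 1789 in venous and from 1780 to 2307 CPM in arterial cells, with log2 differences from capillary of 0.36 (SE 0.047, adjusted p = 7.3e-05) in venous and 0.76 (SE 0.047, adjusted p = 2.1e-08) in arterial cells. The arterial and capillary ranges of H2-D1 did not overlap. B2m was higher by 0.42 (SE 0.049, adjusted p = 3.1e-05) in venous and by 0.52 (SE 0.049, adjusted p = 1.2e-06) in arterial cells.

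The loading genes differed between the segments. Tap1 was higher in venous cells by 0.35 (SE 0.080, adjusted p = 0.0059) and in arterial cells by 0.51 (SE 0.085, adjusted p = 0.00026). Tap2 and Tapbp were higher in arterial cells by 0.29 (SE 0.061, adjusted p = 0.0019) and 0.35 (SE 0.055, adjusted p = 0.00014), but differed by 0.03 and 0.04 in venous cells (adjusted p = 0.764 and 0.645). The venous difference of Tap2 turned to −0.01 without the library labelled old EC-K4KO.

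H2-T23 was the exception among the heavy chains. In venous cells it was higher by 0.33 (SE 0.064, adjusted p = 0.0020), and in arterial cells its difference was −0.11 (SE 0.066, adjusted p = 0.211). Its arterial values were 213, 180, 161 and 136 CPM, its capillary values 255, 219, 166 and 136 CPM and its venous values 316, 277, 190.5 and 186 CPM. H2-Q4 (0.46 venous, 0.67 arterial) and H2-T22 (0.45 venous, 0.39 arterial) were higher in both. Nlrc5 was called in arterial cells, at 0.83 (SE 0.25, adjusted p = 0.0164), a call that was lost without the library labelled young EC-K4KO, which left 8 members. An arterial subcluster of 22, 42, 21 and 9 cells led with the mural cell genes Vtn and Rgs5. Without it and the subclusters led by Krt14, Mbp, Pf4 or C1qa Nlrc5 had 0.84 (adjusted p = 0.0178).

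**Figure D2:**
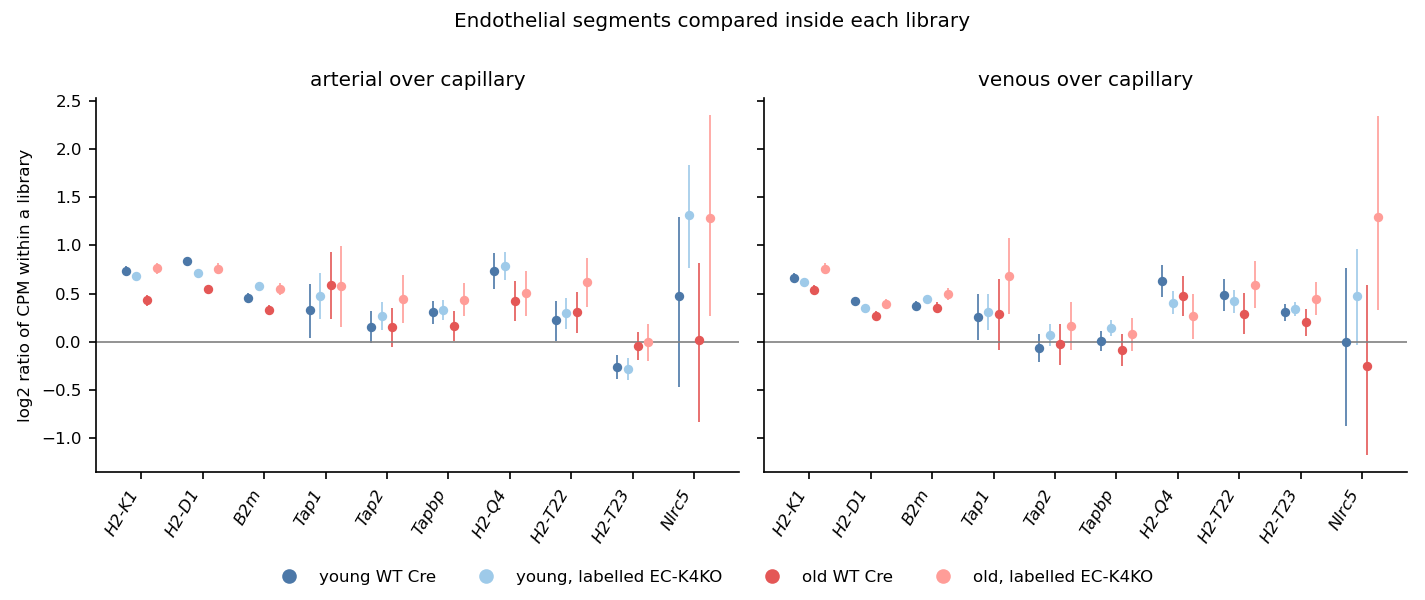
The plot gives, for each gene on the x axis, the log2 ratio of arterial (left) or venous (right) over capillary CPM inside each of the 4 libraries, with 95% counting intervals. H2-K1, H2-D1 and B2m lie above 0 in all 4 libraries in both panels, while H2-T23 is above 0 in all 4 libraries in the venous panel and at or under 0 in the arterial one.

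The direction of age for H2-K1 and H2-T23 was the same in each segment of both pairs. H2-K1 ratios of old to young in the WT Cre pair were 0.12 in arterial, 0.42 in capillary and 0.29 in venous cells, and in the pair labelled EC-K4KO 0.33, 0.25 and 0.38. For H2-T23 they were −0.41, −0.62 and −0.73 in the WT Cre pair and −0.41, −0.69 and −0.57 in the other. H2-D1 ran from −0.02 to 0.27. A test of whether the age effect differs between venous and capillary cells called none of the 10 members by edgeR, where 0.433% of genes were called. No member passed an unadjusted p under 0.05 there, DESeq2 called 0, and the estimates ran from −0.08 to 0.25. The capillary cells of the ages came from different subclusters: one led by Adm and Ankrd37 held 11 and 12 of the young but 676 and 598 of the old capillary cells. Likewise a venous subcluster led by Icam1 and Cxcl2 held 1 and 3 young but 127 and 94 old cells.

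Microglia-like cells, the brain's resident macrophages and not a target of the endothelial driver, were compared in the same libraries (with 326, 574, 1198 and 599 cells). In microglia-like cells 4 members rose with age and 1 fell, of 9 tested, since Nlrc5 did not pass the filter on low counts. Of 10887 genes 23.6% were called, 14.3% higher and 9.28% lower. H2-K1 had 669, 491, 983 and 821 CPM (log2 change 0.92, SE 0.074, adjusted p = 2.0e-08) and H2-D1 had 687, 526, 1080 and 865 CPM (0.95, SE 0.071, adjusted p = 6.3e-09). Both old libraries stood above both young ones for these genes. H2-Q4 rose by 0.70 (SE 0.16, adjusted p = 0.0035) and B2m, at 1923, 1616, 1989 and 1754 CPM, by 0.35 (SE 0.066, adjusted p = 0.00052). The CPM of B2m overlapped between the ages, and its size turned on the scaling, since its log2 ratio of old to young was 0.05 (−0.0037 to 0.10) in the WT Cre pair and 0.12 (0.06 to 0.17) in the pair labelled EC-K4KO on total UMIs, against 0.32 and 0.39 with TMM-scaled totals. The median of 7831 genes in microglia-like cells shifted by −0.25 in both pairs on total UMIs and by 0.02 with TMM-scaled totals. H2-T23 fell by 0.35 on the log2 scale (SE 0.092, adjusted p = 0.0087), with 204, 155, 127 and 106 CPM, a call that 4 of 8 fits made. The 6 endothelial markers, all detected in every library, were also lower in both old than in both young libraries of microglia-like cells, with 350, 285, 80.2 and 123 CPM in sum. Of these Cldn5 had 75.8, 58.5, 12.7 and 20.1 CPM, against 6592, 6184, 4515 and 4275 CPM in endothelial-like cells. The 5 neutrophil markers summed to 7.07, 2.83, 8.09 and 145 CPM in microglia-like cells. Their part in the microglia-like values was not tested. Changes of Tap1, Tap2 and Tapbp lay between −0.10 and −0.02 and did not pass.

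The microglia-like class held 2 clusters in unequal parts. One led by Il1a, Tnf and Ccl3 held 44, 69, 690 and 297 cells, and one led by P2ry12 held 282, 505, 508 and 302. In the P2ry12-led cluster alone, chosen after the data were seen, 3 members were called with age, where 10.7% of 10025 genes were called, 7.41% higher and 3.27% lower. These were H2-K1 (0.55, adjusted p = 9.3e-09), H2-D1 (0.76, adjusted p = 5.8e-16) and H2-T23 (−0.36, adjusted p = 0.0289). B2m (0.16, adjusted p = 0.143) and H2-Q4 (0.39, adjusted p = 0.307) were not. The cluster values of H2-K1 were 610, 449, 709 and 650 CPM, so the age groups did not overlap there either.

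With the genotype label, 2 members fell in microglia-like cells, where 0.588% of genes were called and 0.413% were lower: H2-D1 by 0.36 on the log2 scale (SE 0.071, adjusted p = 0.0165) and H2-K1 by 0.36 (SE 0.074, adjusted p = 0.0252). These calls were not made by DESeq2, with stricter cells or with the coarser clustering, each of which called 0 members. B2m had −0.22 (SE 0.066, adjusted p = 0.242), H2-T23 −0.34 (SE 0.092, adjusted p = 0.172) and H2-Q4 −0.39 (SE 0.16, adjusted p = 0.654).

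**Figure D3:**
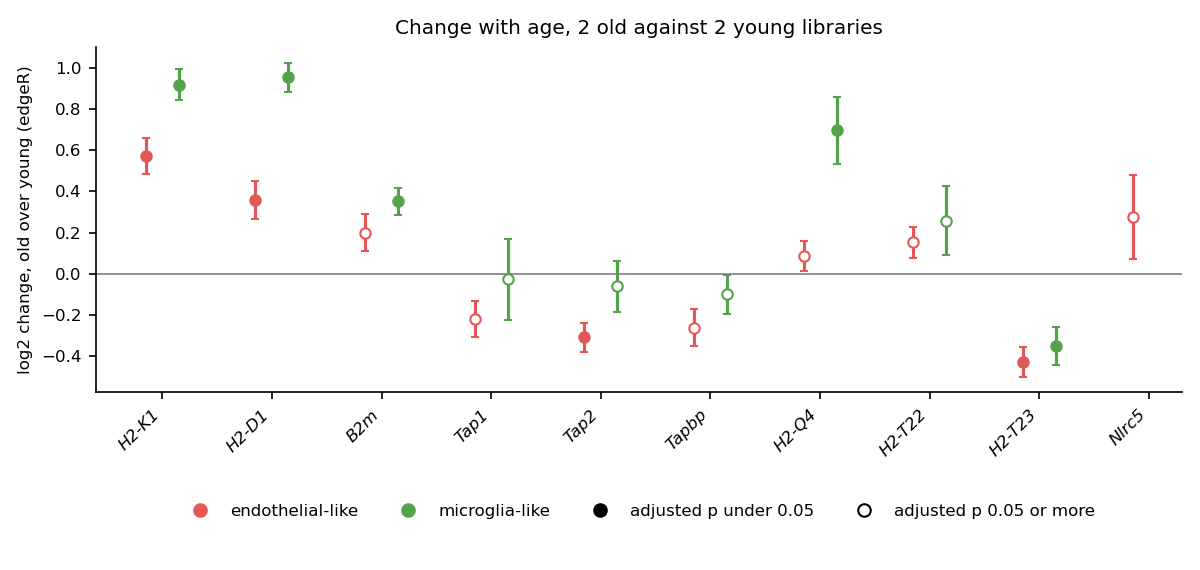
Points are edgeR log2 changes, old over young, for each gene on the x axis, with bars of 1 SE, in endothelial-like (red) and microglia-like (green) cells, filled where the adjusted p is under 0.05. H2-K1 and H2-D1 lie above 0 and H2-T23 under 0 in both classes. Nlrc5 has no microglia-like point because it did not pass the count filter.

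Tests of the difference between the classes called none of the 10 members for age by edgeR, where 5.94% of 14723 genes were called. The fit held no separate label term for each class, and one with that term was not run. At an unadjusted p under 0.05 there were 2 members, where 2893 of the 14723 genes were. These were H2-D1 (a difference of 0.63, SE 0.20, adjusted p = 0.0761) and H2-Q4 (0.74, SE 0.24, adjusted p = 0.0784), both larger in microglia-like cells. DESeq2 called 0 members. Of the immunoproteasome list 3 of 5 genes were called higher with age in microglia-like cells, where 14.3% of all genes were. In the test of the difference 2 of 5 were called by edgeR and 0 by DESeq2. For the genotype label the difference was tested after the data were seen. It called 0.0% of genes and no member by edgeR (1 member and 326 of all genes at an unadjusted p under 0.05) and 0 members by DESeq2. With a separate age term for each class 1.43% of genes and 4 members were called, H2-D1, H2-K1, H2-Q4 and B2m, each lower in microglia-like than in endothelial-like cells.

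Cell classes with at least 30 cells in every library differed in H2-K1. It averaged 1190 CPM ± 237 (SD, n = 4 libraries) in endothelial-like cells, 1233 ± 173 in border macrophage-like cells and 741 ± 210 in microglia-like cells. It was 289 ± 91.9 in pericyte-like, 186 ± 37.3 in smooth muscle-like, 149 ± 29.9 in astrocyte-like and 53.3 ± 31.9 in oligodendrocyte-like cells. Border macrophage-like cells, at 1143, 1077, 1472 and 1240 CPM, stood above endothelial-like cells in young WT Cre and old WT Cre and under them in the other libraries. Smooth muscle-like cells (150, 161, 232 and 199 CPM) stood above astrocyte-like cells (116, 132, 168 and 180 CPM) in each library. Ependymal-like cells, which numbered under 30 in each young library, held 1837 and 1009 CPM of H2-K1 in the old libraries. T and NK-like cells, in the 3 libraries with at least 30 of them, had 2741 to 2986 CPM of H2-K1.

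Against endothelial-like cells (edgeR, library as block, 13671 genes), all 10 members were lower in pericyte-like, smooth muscle-like, astrocyte-like and oligodendrocyte-like cells, where 27.0%, 32.8%, 35.5% and 35.2% of all genes were lower. The median log2 difference of the members was −1.73, −2.32, −3.47 and −4.09 in this order, against −0.11, −0.06, −0.08 and −0.20 over all genes tested. Leaving out young WT Cre, the library labelled young EC-K4KO or old WT Cre left 9 members tested, all called, since Nlrc5 then did not pass the filter on low counts. Stricter cells likewise left 9 tested in each of these classes, all called. In pericyte-like cells DESeq2 called 9 of the 10, without Tap2 (adjusted p = 0.0753), and its size factors in the edgeR fit also gave 9. H2-T23 stood at 202 CPM ± 49.4 (SD, n = 4) in endothelial-like, 52.3 ± 22.9 in pericyte-like and 11.02 ± 1.18 in smooth muscle-like cells. Tap2 differed by −0.42 in pericyte-like and by −4.69 in oligodendrocyte-like cells.

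Microglia-like cells differed from endothelial-like cells member by member. Of the 10 genes 8 were called, 1 higher and 7 lower, where 66.4% of all genes were called, 33.6% higher and 32.8% lower, so a call is common here. B2m was higher by 0.87 (SE 0.18, adjusted p = 6.3e-05), at 1820 CPM ± 169 against 1194 ± 74.0 (SD, n = 4). The heavy chains H2-T22 (−1.35, SE 0.12, adjusted p = 4.6e-12) and H2-Q4 (−1.06, SE 0.22, adjusted p = 7.9e-05) were lower, as were H2-D1 (−0.70, SE 0.22, adjusted p = 0.0065) and H2-K1 (−0.43, SE 0.18, adjusted p = 0.0370). H2-T23 (−0.20, SE 0.20, adjusted p = 0.390) and Tapbp (−0.12, SE 0.12, adjusted p = 0.393) did not pass. The calls for H2-K1, H2-D1 and Tap1 were lost with doublets kept and with coarser clusters, which left 5 members, and 4 were left with stricter cells. Without the library labelled young EC-K4KO 4 members were called, and 6 without any 1 of the others, where 61.6% and 61.0% to 64.7% of all genes were called, and 9 or 10 members were tested, so these counts lie near or under the share of all genes.

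**Figure D4:**
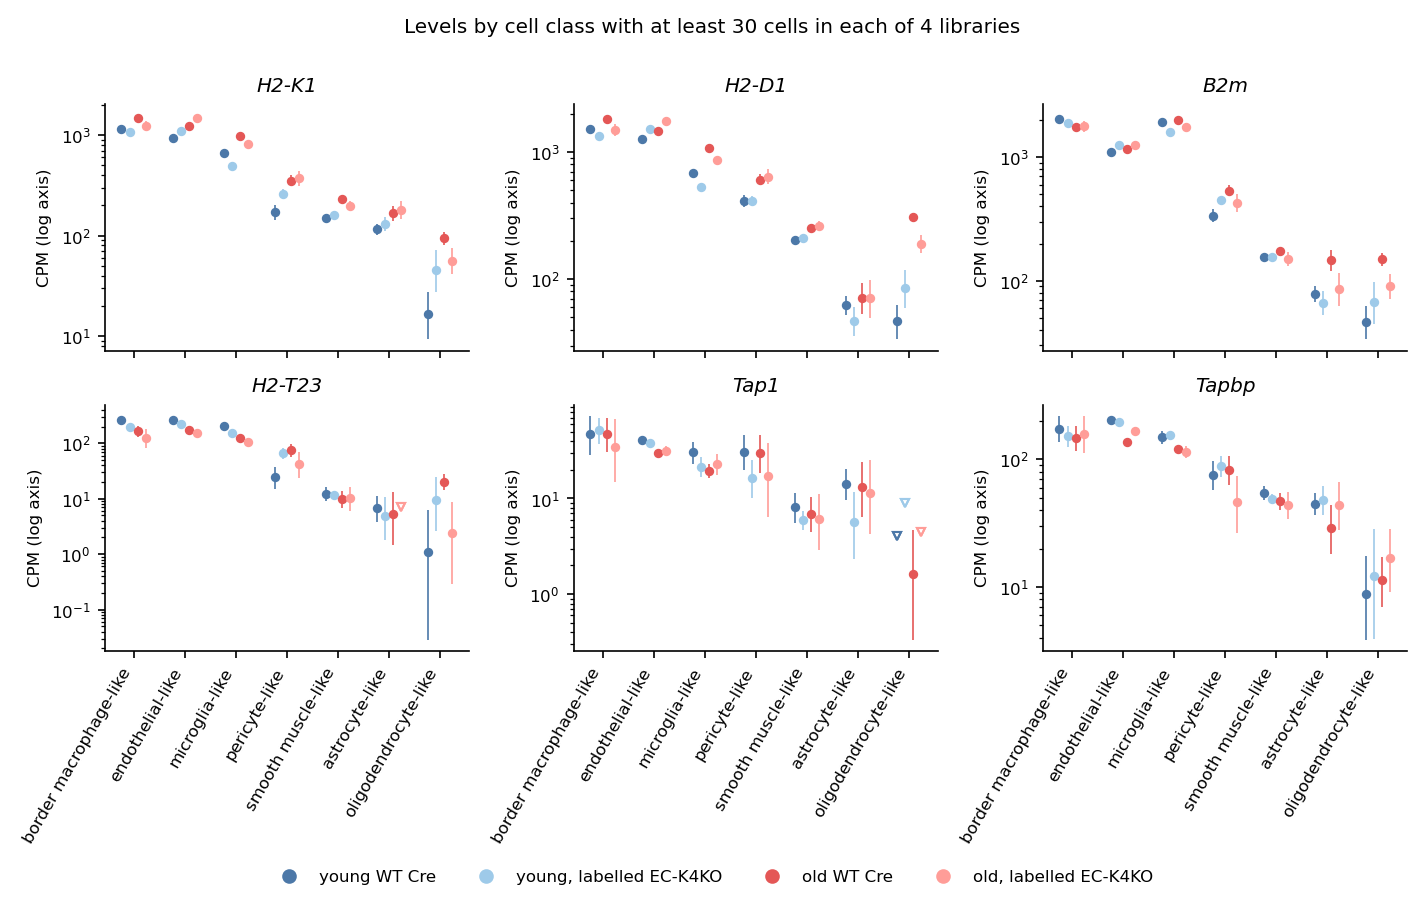
CPM on a log axis is shown for 6 genes in the 7 cell classes with at least 30 cells in all 4 libraries, ordered by mean H2-K1 level, with exact 95% Poisson intervals and open triangles at the interval's upper end where no UMI was counted. H2-K1 falls from 1233 CPM on average in border macrophage-like cells to 53.3 CPM on average in oligodendrocyte-like cells, and B2m is highest in border macrophage-like and microglia-like cells.

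The balance between H2-K1 and H2-D1 differed between cell classes. The ratio of their UMIs was 0.745, 0.723, 0.844 and 0.855 in endothelial-like cells and 0.910 to 0.973 in microglia-like cells. In astrocyte-like cells it was 1.86, 2.82, 2.35 and 2.54, and in oligodendrocyte-like cells 0.357, 0.543, 0.307 and 0.299. The astrocyte-like intervals all lay above 1 and those of the oligodendrocyte-like cells all under 1, so in every library the ratio lay on opposite sides of 1 in these classes. Choroid plexus-like (2.13 to 2.67, 2 libraries) and ependymal-like cells (1.55 to 1.76, 2 libraries) stood with the astrocyte-like cells. Within the endothelium the ratio was 0.852 to 1.01 in venous, 0.704 to 0.820 in capillary and 0.685 to 0.790 in arterial cells. How many UMIs each transcript gives can differ between the 2 genes, so the ratio compares classes and not the levels of the genes.

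**Figure D5:**
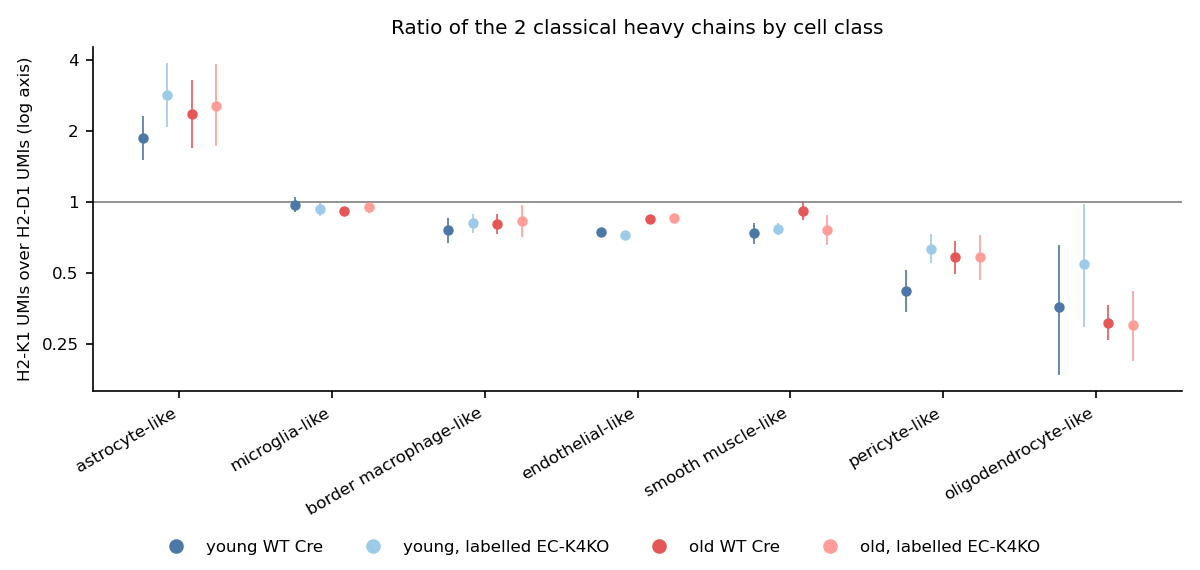
The ratio of H2-K1 to H2-D1 UMIs (log axis) is plotted by cell class and library with exact 95% counting intervals, and the grey line marks 1. Astrocyte-like cells lie between 1.86 and 2.82 in all 4 libraries, endothelial-like cells between 0.723 and 0.855, and oligodendrocyte-like cells between 0.299 and 0.543.

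H2-T23 stood in the same order of libraries in 4 of the 12 classes with values in all 4 libraries, an order noticed after the values were seen. Besides endothelial-like and microglia-like cells, border macrophage-like cells had 259, 197, 165 and 124 CPM and T and NK-like cells, with 22, 47, 35 and 30 cells, had 375, 313, 214 and 145 CPM of H2-T23. In each of these 4 classes the 4 values run from high to low in the order given. The other 8 classes did not share the order, among them pericyte-like (24.6, 66.1, 75.5 and 43.1 CPM), fibroblast-like (132, 222, 258 and 118 CPM), smooth muscle-like (12.4, 11.6, 9.75 and 10.4 CPM) and neutrophil-like cells (196, 185, 67.3 and 72.8 CPM). Ependymal-like cells had 16.3, 19.0, 358 and 158 CPM. The macrophage and T and NK-like values were not tested. The 4 classes come from the same 4 libraries, so they are not independent of each other.

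Outside the members, the genes most like H2-K1 were Psmb8 (Pearson r = 0.931 of log2(CPM + 1)), Psmb9 (0.913), Gbp7 (0.905), Psme1 (0.880) and Clic1 (0.873). The r values were taken over 33 sums of library and class (13 classes, classes with at least 50 cells in the library). Psmb8 and Psmb9 encode immunoproteasome subunits and Psme1 a subunit of the proteasome activator. Among the members, B2m (0.895) and Tapbp (0.882) were closest to H2-K1 and Tap2 had an r of 0.789. The sums share libraries and depth, so these values are a description of the pattern across classes.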

How the data were processed

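Droplet libraries from mouse brain were sequenced, and the authors deposited counts, whole UMIs per gene and barcode, as Cell Ranger matrices (version 6.0.2 per the file headers). The submitters' processing notes name GRCm38 (mm10) and Seurat. Barcodes with at least 500 genes, 1000 UMIs and at most 10% mitochondrial UMIs were kept, and the highest doublet scores were removed (0.8% per 1000 cells). Cells were clustered with scanpy 1.11.5 (2000 variable genes without the members, 30 components, 20 neighbours, Leiden resolution 1) and named from marker lists. UMIs were summed per library and class or segment. Age and label were fitted as additive terms in edgeR 4.0.16 (quasi-likelihood, TMM, filterByExpr, Benjamini-Hochberg over all genes, threshold 0.05). This leaves 1 residual degree of freedom, and classes and segments were fitted with the library as block. Separate mice behind the libraries are not given, so p-values do not measure the spread between mice. They rest on how these libraries depart from the fitted terms, with a spread that edgeR draws in large part from all genes. Pairwise ratios had 0.5 UMIs added and exact intervals for counting error only. DESeq2 1.42.0 was an alternative. The fits were tested on simulated counts with 1 dispersion for all genes and log2 changes of at least 1. The changes of the members with age are smaller, so that test does not cover them. Named were all members, other list genes called with age in endothelial-like cells (at most 10), and the 5 genes outside the members most like H2-K1. One item that this rule names is not reported here. The members and lists were chosen with earlier results of these data known.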

Additional observations from a re-analysis of the deposited data

Results flagged for a closer look

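The genotype label had effects that differed between microglia-like and endothelial-like cells for 4 members, in a fit added after the data were seen that kept a separate age term for each class and called 1.43% of all genes. The difference in log2 change, microglia-like minus endothelial-like, was −0.68 for H2-D1 (edgeR adjusted p = 6.8e-06), −0.66 for H2-K1 (adjusted p = 1.4e-05), −0.64 for H2-Q4 (adjusted p = 0.0197) and −0.41 for B2m (adjusted p = 0.0304). The CPM of H2-K1 was lower in the library labelled EC-K4KO than in its WT Cre counterpart in microglia-like cells at both ages and higher in endothelial-like cells at both ages. The calls rest on the age term. Without it the differences were −0.68, −0.66, −0.71 and −0.41, and every adjusted p was 1.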

How the results depend on the processing

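No paired analysis was possible because each group is 1 library and all carry the same replicate number. The age and label fits could not be tested with a library left out, since no residual degree of freedom remains. Members called between microglia-like and endothelial-like cells numbered 8, and 5 with the coarser clustering, 5 with doublets kept, 4 with stricter cells and 4 to 6 with 1 library left out. For age in microglia-like cells 5 became 3 with DESeq2 and 3 in the P2ry12-led cluster, while the share of all genes went from 23.6% to 6.15% and 10.7%. For label in microglia-like cells 2 became 0 with DESeq2, 0 with the coarser clustering and 0 with stricter cells. For an age effect that differs between these classes 0 became 1 with the coarser clustering, 1 with doublets kept, 3 with no filter and 2 with stricter cells, while the share of all genes called went from 5.94% to 5.95%, 9.23%, 4.64% and 7.33%, and for a label effect 0 became 4 with the age by class term kept. The direction turned for Tap2 in venous against capillary cells without the library labelled old EC-K4KO (−0.011, with 0.084 at most when 1 library was left out, young WT Cre), and for H2-Q4 between the libraries labelled EC-K4KO with TMM-scaled totals (0.010) and DESeq2 size factors (0.021). With 1 library left out the arterial count ran from 8 to 9, the venous count stayed at 7 and those of the other classes ran from 9 to 10. The cause of these changes was not tested. Over all alternatives, 120 counts stayed within 1.5 times the original and 14 did not. Low counts limit Nlrc5, which had 61 UMIs in endothelial-like cells of the library labelled old EC-K4KO.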

Other observations

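Ependymal-like cells (29, 20, 113 and 38 cells in young WT Cre, labelled young EC-K4KO, old WT Cre and labelled old EC-K4KO), which line the ventricles, had 198, 422, 1837 and 1009 CPM of H2-K1 and 65.3, 52.2, 966 and 271 CPM of B2m. H2-D1 in these cells stood at 128, 145, 1188 and 573 CPM and H2-T23 at 16.3, 19.0, 358 and 158 CPM. For all 4 genes both old libraries were above both young ones, and the difference was not tested. Fibroblast-like cells (46, 58, 39 and 28 cells) had 340, 521, 689 and 1527 CPM of H2-K1.

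An unnamed cluster led by Spp1, Clec7a and Cst7 held 10 and 11 cells in the young and 109 and 165 cells in the old libraries. In the old libraries it had 2761 and 1716 CPM of H2-D1 and 3457 and 2728 CPM of B2m, against 1080 and 865 CPM of H2-D1 and 1989 and 1754 CPM of B2m in microglia-like cells.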
